A study of Homo sapiens with 11 samples.

Results

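The forkhead genes encode transcription factors that share a winged-helix DNA-binding domain, and their chromatin was read here from peak lists of the Ewing sarcoma line SK-N-MC. Members were the protein-coding genes of the GRCh38 RefSeq table whose symbol is FOX, a letter and a number with nothing after it, apart from 2 symbols that the selection leaves out. This gave 43 of 20037 protein-coding genes, from FOXA1 to FOXS1. The selection used names alone, and no measured value. A gene was counted as having a peak when at least 1 bp of the peak lay within 1 kb of either annotated end of the gene.

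Most forkhead factors bind DNA as monomers, and several of them can open compacted chromatin ahead of other regulators. Many are restricted to particular embryonic lineages, among them the FOXA factors of endoderm and the FOXC and FOXF factors of mesoderm. Others are made in most cells: the FOXO factors are kept out of the nucleus by insulin and AKT signalling, and the FOXK factors restrain autophagy and starvation genes. The NuRD complex joins the remodelling ATPase CHD4 with the deacetylases HDAC1 and HDAC2 and with MTA and RBBP scaffold subunits, and it acts at active as well as silent genes.

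Chromatin of SK-N-MC, an established human cell line labelled wild type, was immunoprecipitated and sequenced (ChIP-seq) in 1 sample for each of 9 targets. These were the histone marks H3K4me3, H3K27ac, H3K4me1 and H3K27me3, the factor FLI1, and the NuRD subunits HDAC2, RBBP4, MTA2 and CHD4, the last recovered with a Flag antibody. A further 2 input samples had no peak list and were not analysed here. H3K4me3 marks promoters, H3K27ac active promoters and enhancers, H3K4me1 enhancers and their flanks, and H3K27me3 genes held by Polycomb, while the FLI1 antibody addresses the factor whose fused form, EWSR1::FLI1, drives this tumour. The labels do not say how the Flag-tagged CHD4 was introduced, and all 9 lists come from 1 line, so no list has a replicate, no test between conditions could be made, and shares are set beside those of all protein-coding genes.

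The lists held between 1561 peaks (FLI1) and 31247 peaks (H3K4me1), and their median fold enrichments, the ratio of signal at the summit to local background given by the authors' peak caller, lay between 4.26 (RBBP4) and 16.2 (H3K4me3). No read counts were given, so depth is unknown, and shallow sequencing and a true lack of the protein or mark cannot be told apart where no peak is listed. A set of 8 genes known for expression or fusion control in Ewing sarcoma was picked after the data were seen, so it is no test of the lists. All 8 had a FLI1 peak within 100 kb, against 12.7% of all genes. Of the 8, 7 had both H3K4me3 and H3K27ac near an end, against 38% of all genes. CD99, the surface marker used in diagnosis, had no listed peak of either mark near its ends, which cannot be read as absence of the marks.

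About as many forkhead genes as genes in general carried promoter and NuRD peaks. H3K4me3 lay near an end of 22 of the 43 forkhead genes (51.2%, 95% Wilson interval 36.8 to 65.4), against 56.8% of all protein-coding genes. H3K27ac lay near 14 (32.6%, 20.5 to 47.5), against 39.2% of all genes. These 14 all held H3K4me3 as well, and the pair of marks was present at 38% of all genes. No forkhead gene had H3K27ac without H3K4me3, against 1.2% of all genes. A further 18 forkhead genes (41.9%, 28.4 to 56.7) had no peak of any of the 9 lists near an end, against 38.3% of all genes. Intervals here cover counting error over genes only, and neighbouring genes are not independent.

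Among the subunits HDAC2 was found most often, near 17 forkhead genes (39.5%, 26.4 to 54.4), against 39% of all genes. RBBP4 followed with 12 forkhead genes (27.9%), against 22% of all genes, and MTA2 with 11 (25.6%), against 20.8% of all genes. CHD4 was near 6 forkhead genes (14%, 6.56 to 27.3), against 10.5% of all genes. At least 1 subunit lay near 20 forkhead genes (46.5%), against 45.3% of all genes, 3 subunits near 4 (9.3%), against 8.04%, and all 4 near 4 (9.3%, 3.68 to 21.6), against 5.61% of all genes. Each of these shares is close to its background, whose value lies inside the forkhead interval.

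In the 1 kb window H3K4me1 and H3K27me3 were the lists whose background value fell outside the forkhead interval. H3K4me1 lay near 8 forkhead genes (18.6%, 9.74 to 32.6), against 7.67% of all genes, and H3K27me3 near 4 (9.3%, 3.68 to 21.6), against 2.37% of all genes. The counts behind them are small, and no test was made. In a 5 kb window H3K4me1 was near 20.9% of the forkhead genes, against 19.6% of all genes. H3K27me3 was near 14% in that window, against 3.4%. Where strand was known and starts alone were counted, H3K4me1 was near 3.03% of 33 forkhead genes, against 4.04% of 15842 genes. FLI1 lay near no forkhead gene (0 of 43, upper Wilson bound 8.2%), against 0.853% of all genes.

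**Figure D1:**
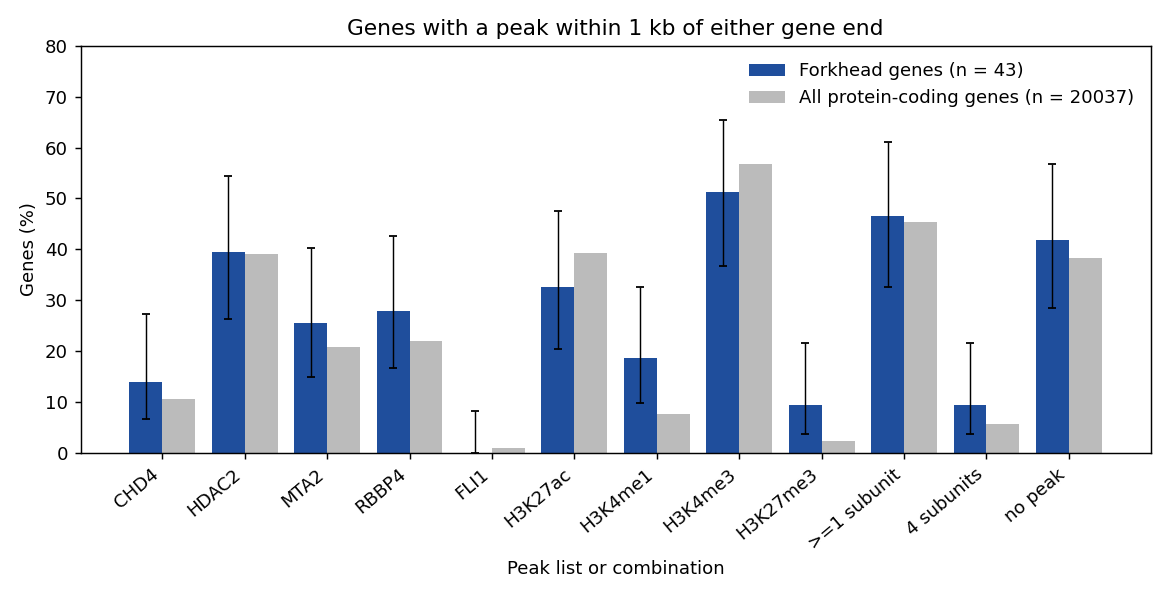
Share of genes (%) with a peak within 1 kb of either gene end, for each of the 9 lists, for at least 1 and all 4 NuRD subunits, and for no peak; blue bars are the 43 forkhead genes with 95% Wilson intervals and grey bars all 20037 protein-coding genes. The bars lie close together for the subunits, H3K4me3 and H3K27ac, and H3K4me1 (18.6% against 7.67%) and H3K27me3 (9.3% against 2.37%) stand higher in the forkhead genes.

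Subunits and H3K4me3 were mostly near ends of the same genes. None of the 21 forkhead genes that lacked H3K4me3 near an end had a subunit there (upper Wilson bound 15.5%), against 5.32% of all genes lacking it, a value inside that bound. The peaks themselves need not overlap, as at FOXO4, whose subunits and H3K4me3 lie at opposite ends. Within the 22 forkhead genes with H3K4me3, HDAC2 was near 17 (77.3%), against 65.8% of all genes with the mark, MTA2 near 11 (50%), against 35.3%, RBBP4 near 12 (54.5%), against 37.4%, and CHD4 near 6 (27.3%), against 16.9%. H3K27ac accompanied H3K4me3 at 63.6% of the forkhead genes, against 66.9% of all genes, and H3K4me1 did so at 31.8%, against 9.07%, although mostly at the other end of the gene. Where H3K27ac was present too, HDAC2 was near 13 of 14 forkhead genes (92.9%, 68.5 to 98.7), against 73.6% of all genes with both marks. FOXK1 was the exception, with MTA2 alone. CHD4 was near 5 of these 14 (35.7%), against 20.4%, MTA2 near 9 (64.3%), against 42.7%, and RBBP4 near 8 (57.1%), against 45.4%. Of the 8 forkhead genes with H3K4me3 but no H3K27ac within 1 kb, 4 had HDAC2 (50%), against 49.9%, and 4 RBBP4 (50%), against 21.2%. MTA2 was near 2 of them (25%), against 20.2%, and CHD4 near 1 (12.5%), against 9.9%. FOXN2 is 1 of these 8, although an H3K27ac peak lay just outside that distance. Across these groups with H3K4me3 each subunit background lay inside the forkhead interval, apart from RBBP4 in these 8 genes (21.5 to 78.5). The groups are small, and no test was made.

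**Figure D2:**
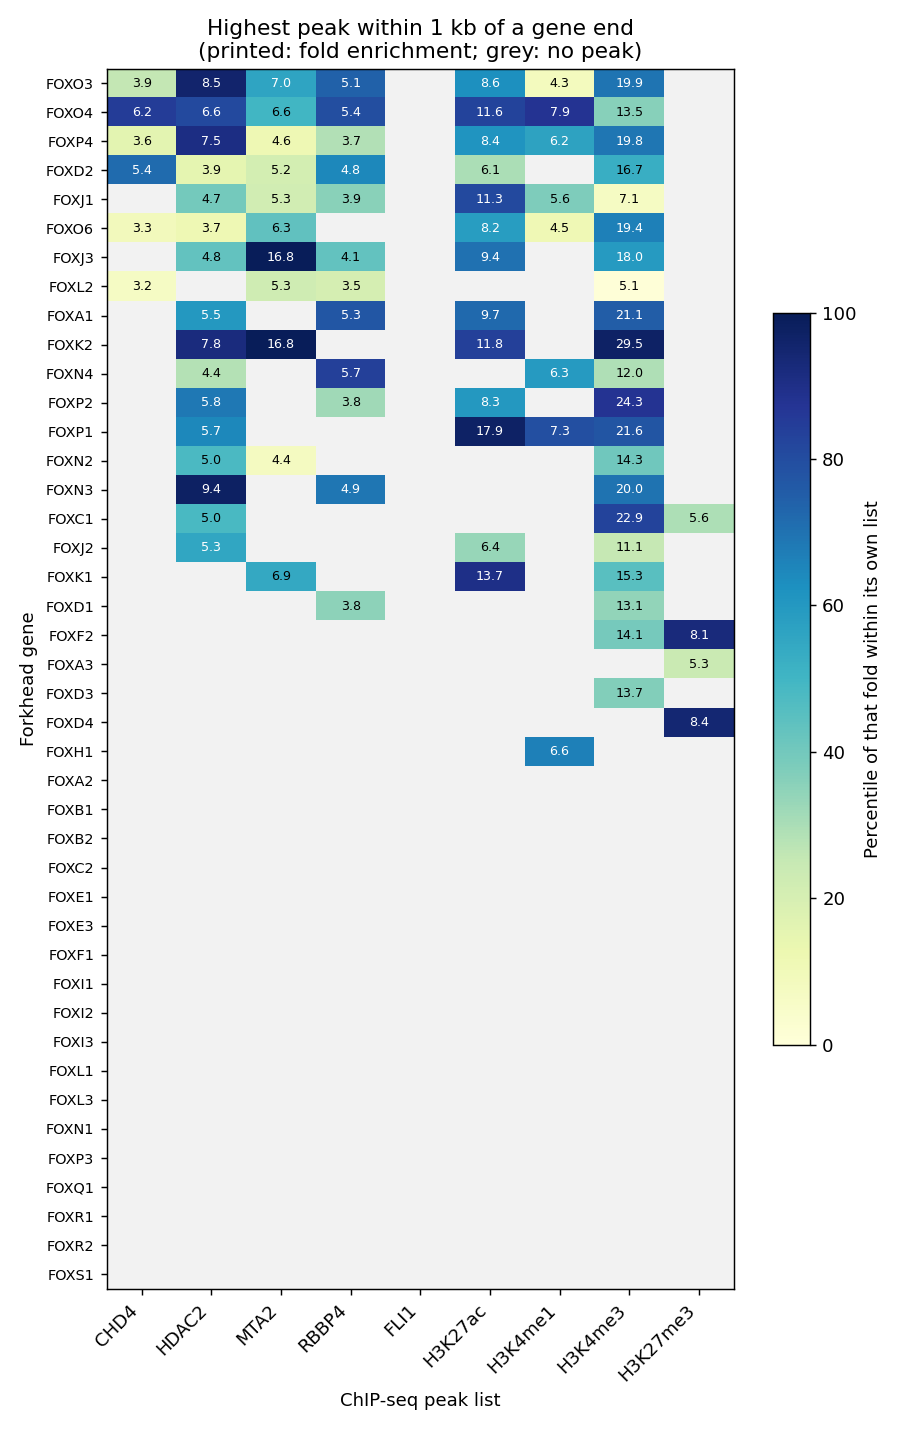
Each row is 1 of 42 of the forkhead genes and each column 1 peak list; the printed value is the highest fold enrichment of a peak within 1 kb of either gene end and the colour its percentile among all peaks of that list, with grey for no peak. FOXO3, FOXO4 and FOXP4 fill 7 of 9 columns, the FLI1 column is empty, and the lowest 18 rows hold no peak.

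The members with the most lists belonged to the FOXO, FOXP, FOXJ and FOXD subfamilies. FOXO3, FOXO4 and FOXP4 had peaks of 7 lists, FOXD2, FOXJ1 and FOXO6 of 6, and FOXJ3 of 5. No member had 8 or 9. FOXD2, FOXO3, FOXO4 and FOXP4 were the 4 members with all 4 subunits, and in each of them overlapping subunit peaks joined into a merged site at an end.

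The FOXO factors control stress resistance, cell cycle arrest and metabolism downstream of AKT. All 3 FOXO members counted here had H3K4me3, H3K27ac and at least 3 subunits near an end. Over all genes 38% had both marks, 8.04% had 3 subunits and 5.61% had all 4. A group of 3 genes is too small to describe a subfamily, and no test was made. FOXO3 (chr6:108559825-108684774) had a broad HDAC2 peak of 1772 bp across its start, with a fold enrichment of 8.52 at percentile 95.6 of the HDAC2 list. At the same start the MTA2 peak had a fold of 6.95 (percentile 56.1), RBBP4 4.14 (45.9) and CHD4 3.94 (25.7), within an H3K4me3 peak of 3709 bp and fold 19.9. A second, weaker CHD4 peak of fold 3.64 and an RBBP4 peak of fold 5.14 crossed its far end, beside an H3K4me1 peak of fold 4.32. A separate site with all 4 subunits and H3K27ac was found 14.9 kb outside the gene.

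FOXO4, on the X chromosome (chrX:71095851-71103532), carried its marks at different ends. Its H3K4me3 peak, of fold 13.5 and percentile 36.2, covered the start, with its summit 294 bp upstream. The 4 subunits were all at the other end, with a CHD4 fold of 6.22 (percentile 85), an MTA2 fold of 6.64 (49.9), an HDAC2 fold of 6.56 (81.1) and an RBBP4 fold of 5.44 (79.3). An H3K27ac peak of 3032 bp and fold 11.6 covered the same end, and an H3K4me1 peak of fold 7.87 (percentile 87.7) lay just inside the gene. The CHD4 and H3K4me1 folds were the highest near an end of any member, although higher peaks of both lay inside FOXP1. The subunit peaks also hold an end of the neighbouring gene CXorf65, and which gene they serve cannot be told apart here.

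FOXO6 (chr1:41361434-41383590), a FOXO factor of the brain in mice, had CHD4 with a fold of 3.34 (percentile 9.03), HDAC2 with 3.74 (11.5) and MTA2 with 6.3 (43.4), all with summits 140 to 167 bp upstream of the start. These are weak peaks within their lists. The H3K4me3 peak next to them had a fold of 19.4 (percentile 66.6) and began at the start, while H3K4me1 of fold 4.49 lay farther upstream. H3K27ac was near both ends, with folds of 5.93 at the start and 8.17 at the far end. RBBP4 was not near an end but inside the gene, where sites with all 4 subunits lay at CHD4 summits 4.74 kb and 10.5 kb from the start.

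FOXP4 (chr6:41546381-41602384), of the FOXP subfamily that acts in lung, gut and neural development, had its strongest subunit peak near an end for HDAC2, with a fold of 7.54 at percentile 90.9. The CHD4, MTA2 and RBBP4 peaks at its start were lower, with folds of 3.62, 4.62 and 3.69 at percentiles 16, 11.4 and 28.9. H3K4me3 spanned 3025 bp there with a fold of 19.8, and H3K27ac reached 8.45. An H3K4me1 peak of fold 6.22 crossed the far end, and HDAC2 of fold 4.1, H3K27ac of 3.99 and CHD4 of 2.93 lay just beyond it. Within 100 kb FOXP4 had 7 sites with all 4 subunits, the most of any member, and 4 of these lay nearest to an end of MDFI.

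FOXD2 (chr1:47438044-47440691), a regulator of kidney and neural crest derivatives, had all 4 subunits just upstream of its start. CHD4 had a fold of 5.44 (percentile 71.5), RBBP4 4.76 (64.5), MTA2 5.22 (20.9) and HDAC2 3.91 (15), so that here CHD4 and not HDAC2 ranked highest. H3K27ac had a fold of 6.15, the lowest best peak near an end among the 14 acetylated members, and H3K4me3 16.7. The H3K4me3 and HDAC2 peaks also hold an end of the non-coding gene LINC01389. FOXE3, a lens factor 20 kb away, had none of these peaks near its own ends.

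**Figure D3:**
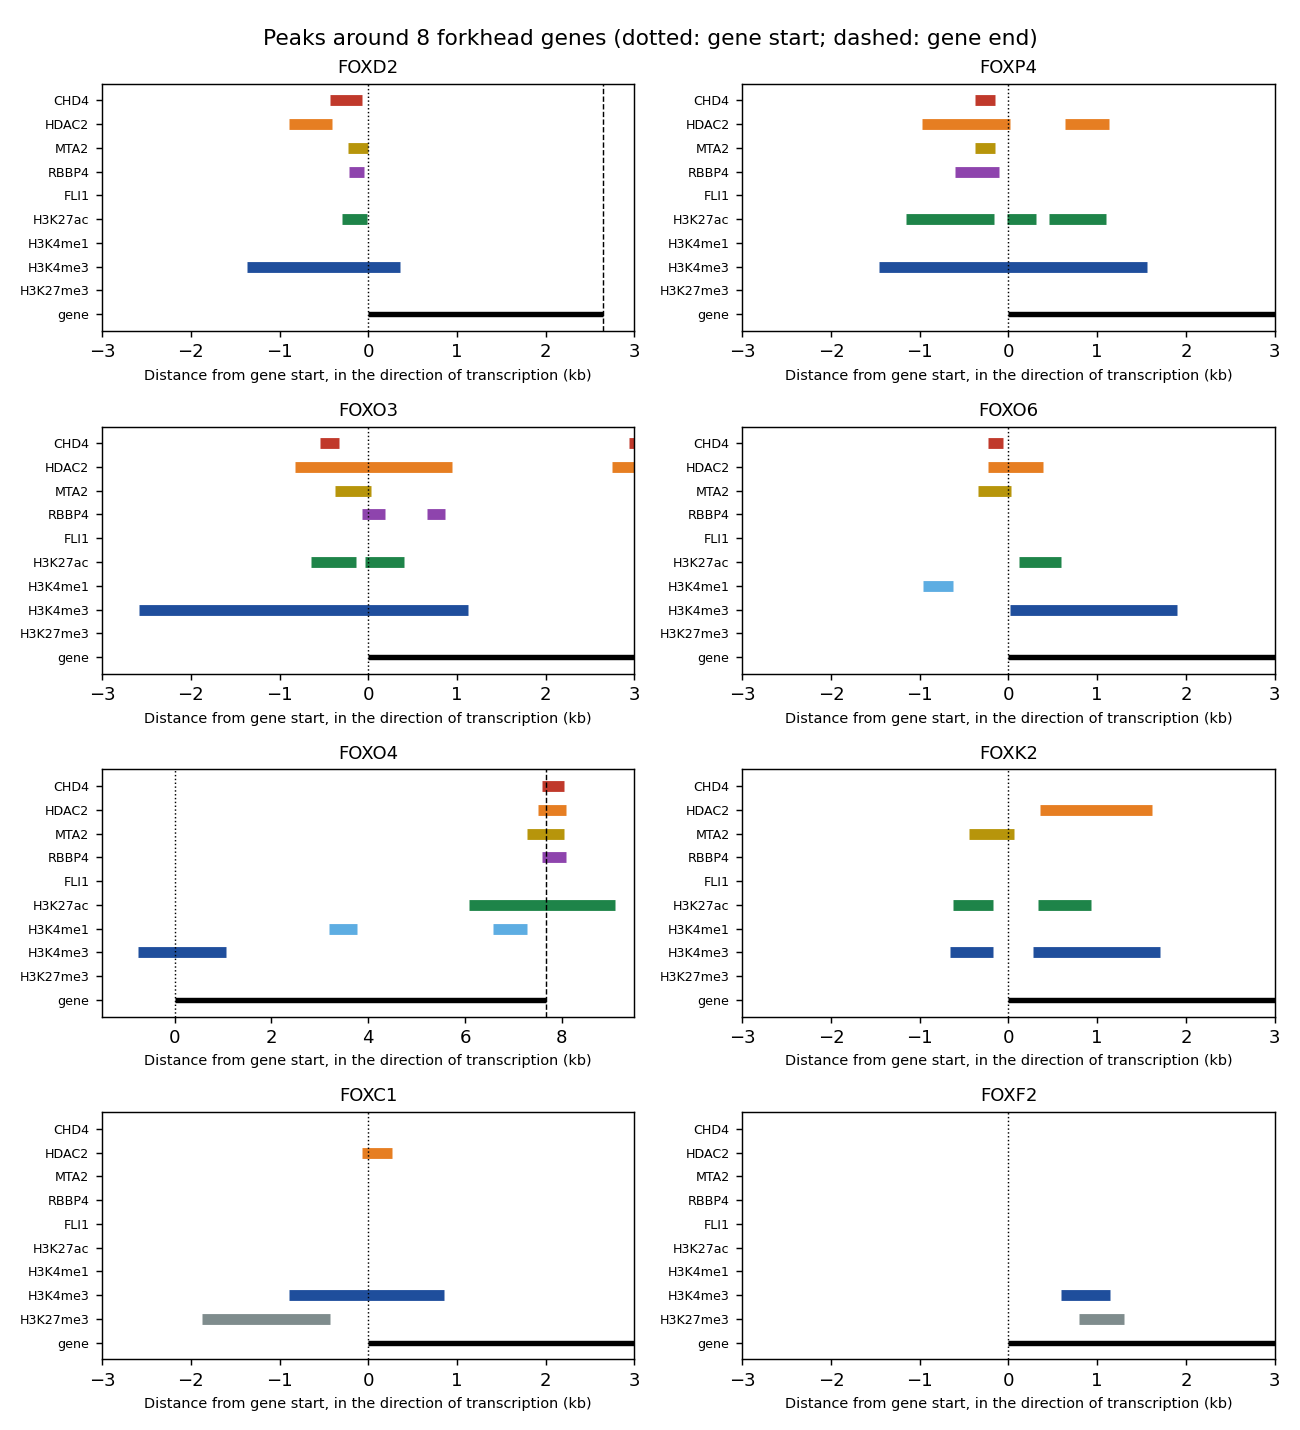
Peaks of the 9 lists (coloured bars) around FOXD2, FOXP4, FOXO3, FOXO6, FOXO4, FOXK2, FOXC1 and FOXF2, drawn to scale against distance from the gene start in kb, with the gene as a black bar, the start dotted and the gene end dashed. Subunit bars stack upstream of the start in FOXD2 and FOXP4 but at the far end in FOXO4, and the FOXC1 and FOXF2 panels hold H3K4me3 beside H3K27me3.

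The sequences under these subunit summits are shown for 5 of the starts that have a summit within the 200 bp before the annotated start. They are from the RefSeq promoter table (GRCh38.p14), read 5′ to 3′ on the strand of the gene given in brackets, and capitals mark the 21 bp centred on each subunit summit inside the sequence. In FOXD2 these are RBBP4 and, nearer the start, MTA2; in FOXP4 and FOXO3 RBBP4; in FOXO6 CHD4 and MTA2 run together, followed by HDAC2; in FOXK2 MTA2.
FOXD2 chr1:47437844-47438043 (+): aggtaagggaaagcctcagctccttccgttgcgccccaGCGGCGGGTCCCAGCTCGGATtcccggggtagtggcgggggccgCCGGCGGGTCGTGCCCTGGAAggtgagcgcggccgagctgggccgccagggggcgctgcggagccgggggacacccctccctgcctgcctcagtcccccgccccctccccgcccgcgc
FOXP4 chr6:41546181-41546380 (+): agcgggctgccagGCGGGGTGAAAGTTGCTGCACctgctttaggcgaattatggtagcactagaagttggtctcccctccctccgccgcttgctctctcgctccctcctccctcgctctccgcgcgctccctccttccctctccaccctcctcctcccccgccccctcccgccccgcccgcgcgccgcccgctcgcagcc
FOXO6 chr1:41361234-41361433 (+): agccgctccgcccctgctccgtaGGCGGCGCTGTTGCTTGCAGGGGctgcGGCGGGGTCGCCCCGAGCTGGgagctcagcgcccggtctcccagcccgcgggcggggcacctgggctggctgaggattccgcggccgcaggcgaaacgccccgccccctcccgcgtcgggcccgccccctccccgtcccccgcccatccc
FOXO3 chr6:108559625-108559824 (+): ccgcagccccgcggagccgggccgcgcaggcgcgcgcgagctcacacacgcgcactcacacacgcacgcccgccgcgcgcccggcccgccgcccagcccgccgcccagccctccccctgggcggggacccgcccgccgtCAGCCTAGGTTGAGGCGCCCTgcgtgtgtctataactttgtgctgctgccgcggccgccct
FOXK2 chr17:82519532-82519731 (+): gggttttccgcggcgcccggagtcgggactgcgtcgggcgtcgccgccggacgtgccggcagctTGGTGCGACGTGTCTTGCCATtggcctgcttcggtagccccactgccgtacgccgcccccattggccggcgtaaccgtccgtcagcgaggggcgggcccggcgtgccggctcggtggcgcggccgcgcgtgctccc

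All 5 sequences are rich in G and C, with 27 (FOXP4), 32 (FOXD2), 42 (FOXO6), 47 (FOXO3) and 55 (FOXK2) CG dinucleotides in the 300 bp from 250 before to 50 after the start, against a median of 22 over 15842 protein-coding promoters. None of the 5 holds the forkhead core TGTTTAC on either strand in that window.

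The FOXK, FOXJ and FOXN factors, several of them widely expressed repressors and cell cycle regulators, had the highest MTA2, HDAC2 and RBBP4 peaks near an end, but none had CHD4 there. FOXJ3 (chr1:42176548-42335880) and FOXK2 (chr17:82519732-82604602) both reached percentile 99.3 of the MTA2 list, each with a fold of 16.8. The FOXJ3 MTA2 summit lay 549 bp inside the gene and the FOXK2 summit 126 bp before the start. FOXJ3 also had HDAC2 of fold 4.85 (percentile 43.1), RBBP4 of 4.08 (43.3), H3K27ac of 9.43 (70) and H3K4me3 of 18 (59.1) at its start. FOXK2 had HDAC2 of fold 7.75 (percentile 92.1), and its H3K4me3 of 29.5 (percentile 97) was the highest among the members.

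FOXK1, the close relative of FOXK2, had MTA2 of fold 6.87 and no other subunit near an end, although a site with all 4 subunits lay inside the gene about 62.8 kb from its start. FOXN3, a checkpoint repressor (chr14:89156177-89619165), had the highest HDAC2 peak near an end of any member, with a fold of 9.36 at percentile 97.6 and its summit 92 bp into the gene. RBBP4 of fold 4.93 and H3K4me3 of fold 20 lay at the same start, where H3K27ac was not found. FOXN4 (chr12:109277978-109309284), which directs retinal and spinal interneurons in mice, had the highest RBBP4 peak near an end of any member, with a fold of 5.74 at percentile 83.7, together with HDAC2 of 4.38 (28.2), H3K4me3 of 12 (29.1) and, at its far end, H3K4me1 of 6.33 (59.2). FOXN2 had HDAC2 and MTA2 with H3K4me3. An H3K27ac peak of FOXN2, of fold 5.64, began 1074 bp from an end, within the span of an H3K4me3 peak counted there. FOXJ2 had HDAC2 with H3K4me3 and H3K27ac. FOXN1, the factor of thymic epithelium, had no peak near an end.

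FOXJ1 (chr17:76136333-76141245), the master regulator of motile cilia, had HDAC2 of fold 4.74 (percentile 39.5), MTA2 of 5.28 (21.8) and RBBP4 of 3.85 (35.6) near its end of higher coordinate. H3K27ac was broad there, 2167 bp with a fold of 11.3 (percentile 81.2), while H3K4me3 was weak, with a fold of 7.08 at percentile 6.69. The acetylation peak also holds an end of the neighbouring gene RNF157. H3K4me1 of fold 5.57 (percentile 37.6) lay at the other end. The tables give no strand for FOXJ1, so its start was not placed.

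FOXP1 (chr3:70954708-71583978) is a repressor that acts in B cell, heart and neural development. It had the highest H3K27ac peak near an end of any member, with a fold of 17.9 at percentile 96.9 and its summit 1410 bp into the gene. HDAC2 of fold 5.66 (percentile 64.7) was its only subunit near an end, with H3K4me3 of 21.6 (77.4) at the start and H3K4me1 of 7.25 (79.2) at the far end. FOXP2, known for its part in speech, had HDAC2 of fold 5.82 and RBBP4 of 3.76 with H3K4me3 of 24.3. FOXP3, the factor of regulatory T cells, had no peak near an end.

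Much of the signal at FOXP1 lay inside the gene, which spans 629271 bp. Within the gene and 1 kb around it were 30 H3K4me1 peaks, 19 H3K27ac, 8 CHD4, 8 HDAC2, 6 H3K4me3, 5 RBBP4 and 4 MTA2 peaks. It also held the only FLI1 peak within 100 kb of any member (2.33% of the 43, against 12.7% of all genes), and the median forkhead gene lay 1150 kb from the nearest FLI1 peak, against 747 kb over 19974 genes on chromosomes with one. That peak, at chr3:71203832-71204114, had a fold of 7.92 at percentile 57.5 of its list and a summit 380 kb from the gene start. All 4 subunits overlapped it, with a fold of 9.47 for HDAC2, 6.2 for RBBP4, 6.08 for CHD4 and 5.63 for MTA2, and the HDAC2 fold, at percentile 97.8, exceeded those at the gene start. An H3K27ac peak of fold 19.9 (percentile 98.3) had its summit 379 kb from the start, and a different H3K27ac peak, of fold 10.7, ended 0.015 kb from the FLI1 peak.

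**Figure D4:**
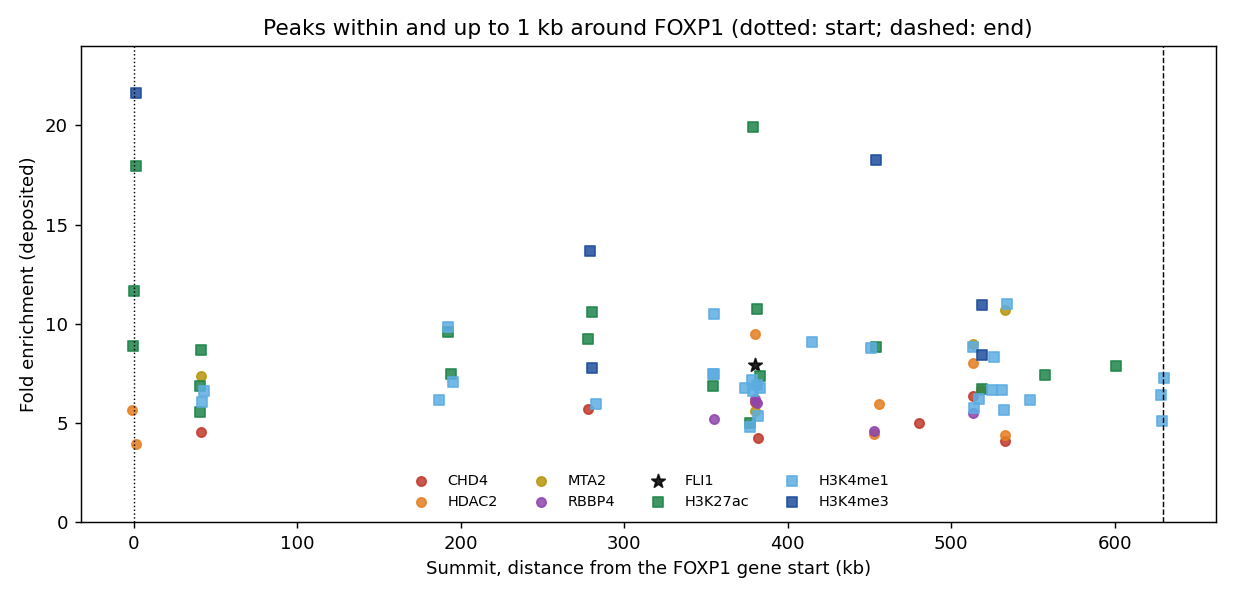
Deposited fold enrichment of every peak in and up to 1 kb around FOXP1 against the distance of its summit from the gene start in kb; circles are NuRD subunits, squares histone marks and the star FLI1. A cluster near 380 kb holds the FLI1 peak of fold 7.92 together with all 4 subunits and the H3K27ac peak of fold 19.9, while HDAC2 is the subunit at the start.

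FOXP1 and FOXP4 each had 3 sites with all 4 subunits for which they were the gene with the nearest end, and FOXO3 and FOXO6 each had 2. In all 7 forkhead genes (16.3%) had such a site, against 15.6% of all genes, with means of 0.302 and 0.245 per gene. Assigned by nearest end, forkhead genes had 128 H3K4me1 peaks, a mean of 2.98 per gene, against 1.56 over all genes, and FOXP1 (34), FOXO3 (23), FOXP4 (16) and FOXP2 (14) held most of them. The median was 0 in forkhead genes and in all genes alike, so the mean rests on these few long genes. Counted over the gene body and 1 kb around it, HDAC2 was present at 41.9% of the forkhead genes, against 48.1% of all genes, RBBP4 at 37.2%, against 31.8%, and FLI1 at 2.33%, against 3.08%. Within 100 kb CHD4 was present for 25 forkhead genes (58.1%), against 61.4% of all genes, and HDAC2 for 29 (67.4%, 52.5 to 79.5), against 81.3%. A site with all 4 subunits was present within 100 kb for 14 forkhead genes (32.6%, 20.5 to 47.5), against 37.9% of all genes.

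Polycomb-marked members were FOXA3, FOXC1, FOXD4 and FOXF2, and none of the 4 had H3K27ac near an end. Such overlap was rare over all genes as well. There 274 genes had H3K4me3 with H3K27me3 and 7620 had H3K4me3 with H3K27ac, of which 7607 lacked H3K27me3. FOXC1 (chr6:1609915-1613897), a mesoderm and neural crest factor of eye and heart, had H3K27me3 over 1441 bp upstream of its start, with a fold of 5.57 at percentile 29.5, and H3K4me3 of fold 22.9 at percentile 82.7 across the start. HDAC2 of fold 5.02 (percentile 48.2) was also there, with its summit 26 bp past the start. FOXF2 (chr6:1389576-1395603), of the gut and limb mesenchyme, lies 214 kb away and had H3K27me3 of fold 8.11 (percentile 92.3) overlapping H3K4me3 of fold 14.1 (39.2), both with summits inside the gene and with no subunit. H3K4me3 with H3K27me3 was thus found at 2 of 43 forkhead genes (4.65%, 1.28 to 15.5), against 1.37% of all genes. FOXQ1, in the same cluster 74.8 kb from FOXF2, had no peak near an end.

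FOXA3 (chr19:45864326-45873797), a liver factor, had H3K27me3 of fold 5.29 at percentile 24.2 before its start and no other list within 1 kb. Its nearest H3K4me3 and H3K27ac peaks lay just outside that distance, at 1.21 kb and 1.23 kb. FOXD4 (chr9:116231-118417) had the highest H3K27me3 peak of the members, with a fold of 8.39 at percentile 94.4, past its far end, and 5 H3K27me3 peaks had it as the gene of nearest end. FOXD4 has near-identical copies elsewhere in the genome, the FOXD4L genes, so reads there may be shared and its peaks are uncertain. The nearest H3K4me3 peak of FOXD4 was 1.15 kb away and overlapped the H3K27me3 peak of fold 8.39. H3K27me3 without H3K4me3 within 1 kb of an end was thus found at 4.65% of the forkhead genes, against 0.998% of all genes. This class is FOXA3 and FOXD4, and both had H3K4me3 just outside that distance. In a 5 kb window 14% of the forkhead genes had H3K27me3, against 3.4% of all genes. In that window 11.6% had it with H3K4me3, against 2.02%.

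H3K27me3 was also found near members that the 1 kb window misses. FOXD1, a kidney stroma and retina factor, had it at 1.22 kb beside H3K4me3 of fold 13.1 and RBBP4 of fold 3.84 at its start. FOXB1, a factor of the developing brain, had 5 H3K27me3 peaks within 100 kb, the nearest at 1.88 kb, and no other list within 100 kb. Within 100 kb 14 forkhead genes had H3K27me3 (32.6%, 20.5 to 47.5), against 14.5% of all genes. As the nearest gene, 8 forkhead genes (18.6%) held 20 H3K27me3 peaks, against 5.43% of all genes with any. Several of the 14 are neighbours that share a peak, so they are fewer than 14 separate regions.

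The promoter sequences of FOXC1 and FOXD1 are shown because they place an ETS-type site and an RBBP4 summit beside these marks. In FOXC1 the capitals are a CCGGAA match, a core that ETS factors such as FLI1 can bind, and in FOXD1 they are 21 bp around the RBBP4 summit.
FOXC1 chr6:1609715-1609914 (+): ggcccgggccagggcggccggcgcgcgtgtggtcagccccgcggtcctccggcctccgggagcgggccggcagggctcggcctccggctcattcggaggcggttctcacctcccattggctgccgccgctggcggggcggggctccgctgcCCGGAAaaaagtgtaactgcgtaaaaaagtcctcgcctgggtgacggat
FOXD1 chr5:73448778-73448977 (-): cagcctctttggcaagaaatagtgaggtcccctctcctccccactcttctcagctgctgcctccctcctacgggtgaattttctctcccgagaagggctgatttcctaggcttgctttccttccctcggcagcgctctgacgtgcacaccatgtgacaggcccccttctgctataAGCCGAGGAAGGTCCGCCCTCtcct
CCGGAA on either strand was present in the 300 bp promoters of FOXC1, FOXN3 and FOXR1, 3 of 33 forkhead genes with a promoter in the table (9.09%), against 22.7% of all 15842. A GGAA core joined directly to another GGAA, on either strand, was present in FOXD1 (3.03%), against 3.64% of all promoters. No FLI1 peak lay near any of these genes, and a match is only a string of letters.

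Lineage regulators with H3K4me3 and no H3K27me3 near an end included FOXA1, FOXD1, FOXD3 and FOXL2 beside those above. FOXA1, a pioneer factor of endoderm, breast and prostate, had H3K27ac of fold 9.7, H3K4me3 of 21.1, HDAC2 of 5.45 and RBBP4 of 5.35, and parts of these peaks hold an end of the neighbouring gene TTC6. FOXD3, a stem cell and neural crest factor, had an H3K4me3 peak of 2127 bp and fold 13.7 and nothing else.

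FOXL2, the factor of ovarian granulosa cells, differed from the rest in that CHD4, MTA2 and RBBP4 were present without HDAC2. All 3, with folds of 3.21, 5.32 and 3.45, lay inside the gene within 1 kb of its far end and overlapped an H3K4me3 peak of 299 bp and fold 5.09 that ranked at percentile 0.622 of its list. The CHD4, RBBP4 and H3K4me3 folds were the lowest best peaks near an end among the members with those lists. FOXH1, which works with SMAD proteins in early development, had H3K4me1 of fold 6.63 as its only list (2.33% of the forkhead genes, against 1.53% of all genes), and that peak also holds an end of KIFC2.

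H3K4me1 near forkhead genes lay more at far ends than at starts. Among its 9 peaks near ends, 6 were at the far end, in FOXN4, FOXO3, FOXO4, FOXP1 and FOXP4, 1 was at a start, in FOXO6, and 2, in FOXH1 and FOXJ1, were at genes of unknown strand. Over the 33 forkhead genes of known strand, 5 had H3K4me1 at the far end (15.2%), against 3.88% of 15842 genes, and 1 at the start (3.03%), against 4.04%. CHD4 was at the far end of 4 (12.1%), against 1.33%, and at the start of 4 (12.1%), against 9.66%. The other lists with peaks were more often at starts, in forkhead genes as in all genes: H3K4me3 was at 18 starts (54.5%), against 58.4%, and 3 far ends (9.09%), against 5.11%, H3K27ac at 11 starts (33.3%), against 39.9%, and 3 far ends (9.09%), against 4.33%, and H3K27me3 at 3 starts (9.09%), against 2.1%, and 1 far end (3.03%), against 0.271%. These counts are small, some far ends adjoin another gene, as at FOXO4, and no test was made.

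No list had a peak near an end of FOXA2, FOXB1, FOXB2, FOXC2, FOXE1, FOXE3, FOXF1, FOXI1, FOXI2, FOXI3, FOXL1, FOXL3, FOXN1, FOXP3, FOXQ1, FOXR1, FOXR2 or FOXS1. They include the endoderm factor FOXA2, the thyroid factor FOXE1, the inner ear and kidney factor FOXI1, the lung and gut mesenchyme factor FOXF1 and the lymphatic factor FOXC2. These 18 genes had a median length of 3666 bp and the other 25 members one of 9472 bp, against 24120 bp over all genes and 15880 bp over the 7678 genes without a list near an end. For FOXA2, FOXI1 and FOXI2 (16.7% of the 18, against 21.5% of the 7678) no list had a peak even within 100 kb, and the nearest H3K4me3 peaks were 465, 521 and 383 kb away. For 7 of the 18 (38.9%), against 30.8% of the 7678, an H3K4me3 peak lay within 20 kb, as at FOXP3 (3.9 kb) and FOXB2 (7.14 kb).

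The cluster of FOXF1, FOXC2 and FOXL1 on chromosome 16 shows how such genes can share what lies around them. In the whole span and 100 kb on each side there was 1 H3K4me3 peak of 1601 bp and fold 29.1, overlapped by 1 H3K27ac peak of fold 11.3 and 1 MTA2 peak of fold 5.64, between FOXF1 and FOXC2 and 11 kb before FOXC2. The only other peak was H3K27me3 of fold 6.91, 11.2 kb past FOXL1. These 4 peaks are counted within 100 kb of each of the 3 genes, which are therefore not separate observations.

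Several members without H3K4me3 had CG-rich promoters. Over the 33 members with a RefSeq promoter, the median CG count in 300 bp was 28, against 22 over all promoters. It was 32 in the 19 members with H3K4me3 near an end, against 27 over all genes with the mark, and 22 in the 14 members without H3K4me3, against 8 over all genes without it. FOXI3 (39), FOXL3 (35), FOXQ1 (35) and FOXE1 (32) had no peak of any list, and FOXA3 (37) had H3K27me3, although each count exceeded the median of 27 over all genes with H3K4me3. FOXR2 (1) stood at the other end. The tabulated promoter of FOXP2 (1) lies deep inside the annotated gene, away from the H3K4me3 peak at the gene start, and under another H3K4me3 peak, of fold 12.8, so this CG-poor promoter is itself marked.

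**Figure D5:**
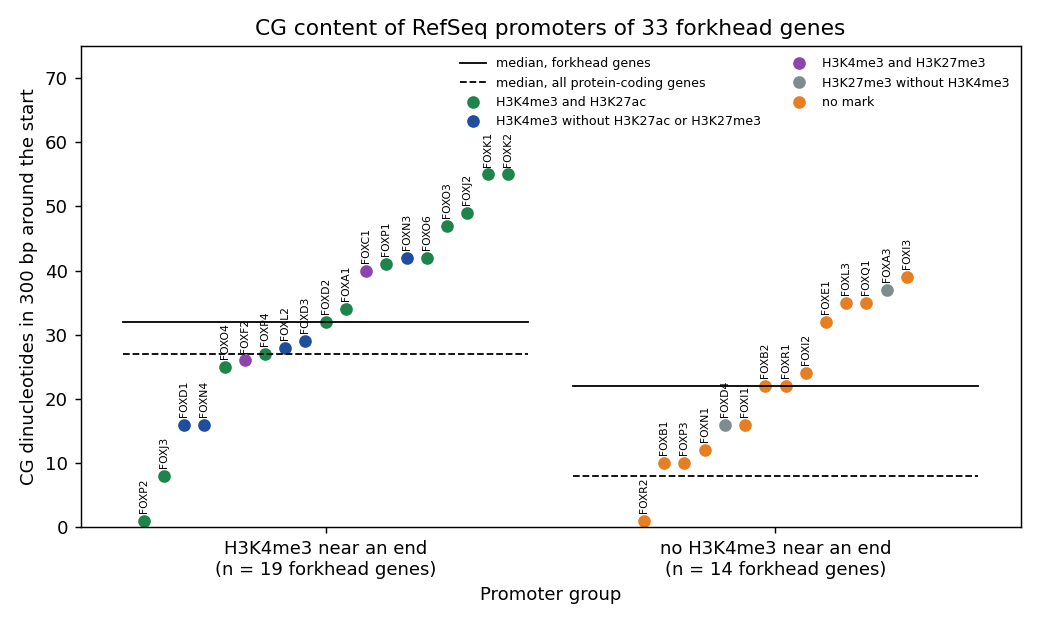
CG dinucleotides in the 300 bp from 250 before to 50 after the RefSeq start for the 33 forkhead genes with a promoter in the table, with H3K4me3 near an end on the left (n = 19) and without it on the right (n = 14), coloured by the marks near the ends; solid lines are forkhead medians (32 and 22) and dashed lines medians of all protein-coding genes (27 and 8). FOXI3, FOXL3, FOXQ1 and FOXE1 are CG-rich on the right.

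FOXE1 and FOXR2 are shown as the contrast, both without any peak: FOXE1 in lower case throughout, with a GC-rich sequence, and FOXR2 with a TATAAA match on the opposite strand, here TTTATA, in capitals.
FOXE1 chr9:97853026-97853225 (+): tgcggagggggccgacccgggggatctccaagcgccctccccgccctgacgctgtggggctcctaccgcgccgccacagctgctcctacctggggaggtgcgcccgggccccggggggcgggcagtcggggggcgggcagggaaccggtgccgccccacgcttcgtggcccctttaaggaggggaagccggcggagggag
FOXR2 chrX:55623200-55623399 (+): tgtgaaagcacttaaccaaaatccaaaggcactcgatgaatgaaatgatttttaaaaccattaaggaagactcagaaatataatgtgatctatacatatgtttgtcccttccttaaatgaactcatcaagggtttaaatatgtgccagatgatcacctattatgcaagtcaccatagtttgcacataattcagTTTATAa
TATAAA on either strand was present in the promoters of FOXA3, FOXP3 and FOXR2, none of which had H3K4me3 near an end. That is 3 of 33 (9.09%), against 9.75% of all promoters. Without H3K4me3 the share was 21.4% of 14 forkhead genes, against 16.4% of all genes lacking the mark. With H3K4me3 it was 0% of 19, against 5.21%, so TATAAA was rarer with the mark over all genes too. The forkhead core TGTTTAC was present in FOXO4 alone (3.03%), against 2.67%.

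Most genes that work with forkhead factors carried H3K4me3. Of 31 partners and regulators, among them AKT kinases, 14-3-3 proteins, SMAD proteins and TLE corepressors, 28 had H3K4me3 near an end (90.3%), 22 H3K27ac (71%) and 21 at least 1 subunit (67.7%), against 56.8%, 39.2% and 45.3% of all genes, and none had all 4. NFATC2, a partner of FOXP3 in T cells, had H3K27me3 of fold 7.34 near an end and no other list.

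Of 20 known targets of FOXO factors 15 had H3K4me3 (75%), against 56.8% of all genes, 14 at least 1 subunit (70%), against 45.3%, and 10 H3K27ac (50%), against 39.2%. None had H3K27me3, H3K4me1 or FLI1, whose shares over all genes are 2.37%, 7.67% and 0.853%. All 4 subunits lay near 2 (10%), against 5.61% of all genes. The first was CDKN1B, the cell cycle inhibitor p27, with a fold of 5.63 for MTA2, 4.3 for HDAC2, 4.28 for RBBP4 and 3.3 for CHD4. The other was SESN1, a stress-induced inhibitor of mTOR signalling, with a fold of 5.83 for HDAC2, 5.55 for MTA2, 3.99 for CHD4 and 3.01 for RBBP4. Of 14 targets of FOXJ1 in motile cilia 10 had H3K4me3 (71.4%), against 56.8% of all genes, 10 at least 1 subunit (71.4%), against 45.3%, and 3 H3K27ac (21.4%), against 39.2%. TUBB4B, a tubulin of the cilium, had all 4 subunits with H3K27ac of fold 12.8, and CCDC39, which sets the spacing of the axoneme, had H3K27me3 of 6.82 with H3K4me3 of 18. The lists were written with earlier results of these data known, and they are counts, not tests.

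Other families of developmental transcription factors gave shares on either side of those of the forkhead genes. H3K4me3 was near 51.2% of the forkhead genes, against 47.4% of 19 SOX, 22.2% of 9 PAX, 38.5% of 13 TBX and 66.7% of 39 HOX genes. All 4 subunits were near 9.3% of the forkhead genes, against 15.8% of SOX, 0% of PAX, 7.69% of TBX and 33.3% of HOX genes. H3K27me3 was near 9.3% of the forkhead genes, against 15.8% of SOX, 33.3% of PAX, 7.69% of TBX and 15.4% of HOX genes. H3K4me1 was near 18.6% of the forkhead genes, against 26.3% of SOX, 0% of PAX, 0% of TBX and 41% of HOX genes. HOX genes sit in tight clusters in which 1 peak can be near several genes, and the families are small, so the differences between them were not tested.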

How the data were processed

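The data were 9 peak lists, 1 sample to a target, and each sample took its group from the antibody target in its title. Per the submitters' processing notes, the genome was GRCh38 and the tools were bedtools 2.27.1, deepTools 3.2.1, SAMtools 1.9, BWA 0.7.17, FastQC 0.11.7 and Trimmomatic 0.36. The deposited peak names contain MACS2; its version, its control and any pooling were not given in the sources used here. Each peak has a fold enrichment (a ratio) and a −log10 p and −log10 q from the authors' peak caller, as deposited. The deposited score was not used, and the summit offsets placed the summits. The weakest deposited −log10 p was 5.02 in the FLI1 list, 7.01 in the RBBP4 list and at least 9 in the others.

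Peaks were set to 1-based positions and compared, in Python 3.11.15, with gene ends from the RefSeq table of GRCh38. Percentiles rank a fold within its own list. Intervals are Wilson 95% (SciPy 1.17.1). The gene table gives no strand, so strand came from the RefSeq promoter table, which matched 33 of 43 members. The start was then the annotated gene end on that side, and distances were measured from it. Printed sequences, motif matches and CG counts used the starts of the promoter table. Members, gene lists and alternatives were chosen with earlier results of these data known. Full values are given for members with 5 or more lists, with H3K27me3, or with the highest fold of a list, and for others where they extend a comparison. Partners and targets were named by rule where all 4 subunits, FLI1 or H3K27me3 lay near an end. The window count was checked on planted peaks. The 2 family members left out, 1 other member and 1 partner gene are not reported here by name.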

Additional observations from a re-analysis of the deposited data

How the results depend on the processing

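Of 126 recalculated shares (14 shares of forkhead genes under 9 alternatives) 92 stayed within 1.5 times their value and 34 did not. Taking summits, adding the FOXD4L genes, or using only peaks without an end of another coding gene, an alternative added after the data were seen, moved none of the 14. Shares of all genes under the same alternative follow in brackets. With peaks required to cover the gene end itself, shares moved to 4.65% for CHD4 (3.03%), 23.3% for HDAC2 (21.6%) and 9.3% for MTA2 (11.9%). RBBP4 moved to 11.6% (9.74%), H3K27ac to 14% (18%), H3K4me1 to 6.98% (2.19%) and H3K27me3 to 0% (0.674%). At least 1 subunit moved to 27.9% (28.8%) and all 4 to 4.65% (1.2%). The paired marks moved as well, with 14% for H3K4me3 with H3K27ac (16.7%) and 0% for H3K4me3 with H3K27me3 (0.2%). At a −log10 p of at least 15 shares moved to 6.98% for CHD4 (6.65%), 16.3% for MTA2 (15.2%) and 9.3% for RBBP4 (8.71%). H3K4me1 moved to 11.6% (5.45%) and all 4 subunits to 2.33% (2.31%). With the 2000 strongest peaks of each list shares moved to 0% for CHD4 (1.04%), RBBP4 (1.66%), H3K27ac (7.19%) and H3K4me1 (0.674%). All 4 subunits moved to 0% (0.16%), H3K4me3 with H3K27ac to 0% (3.1%) and H3K4me3 with H3K27me3 to 0% (0.015%). HDAC2 moved to 4.65% (3.42%), MTA2 to 4.65% (4.33%) and H3K4me3 to 2.33% (11%). At least 1 subunit moved to 9.3% (8.35%) and no peak to 79.1% (77.5%). Over the gene body shares moved to 23.3% for CHD4 (21.5%) and 2.33% for FLI1 (3.08%). H3K4me1 moved to 32.6% (26.5%) and all 4 subunits to 20.9% (13.8%). At gene starts alone H3K4me1 moved to 3.03%, below the 4.04% of all genes. In a 5 kb window H3K4me3 with H3K27me3 moved to 11.6%, against 2.02% of all genes. H3K4me1 stayed within 1.5 times its value there, at 20.9%, but the share of all genes rose to 19.6%. Fewer peaks or narrower windows lower the shares of all genes with a peak too, and counting the whole gene body raises them.

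No paired analysis was possible because only the input samples carry replicate numbers, and they have no peak list. Each list is 1 sample of unknown depth, so the spread between cultures is unknown. Another coding gene's end lies within 1 kb of an end of 6 forkhead genes, where the gene a peak belongs to cannot be told apart. Peaks say nothing of transcript levels.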
